A study of Mus musculus with 5 samples.

Results

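The genes described here are the cytokine receptors of blood cells, the Janus kinases (JAKs) and STAT transcription factors that carry their signals, and a group called feedback genes. That group holds genes that limit these signals, and also the survival kinase genes Pim1 and Pim2 and Ptpn11, whose product mostly promotes growth factor signals. The genes were chosen by symbol from a list of 51, made of 28 receptors, 4 JAKs, 5 STATs and 14 feedback genes. Of the 22180 genes analysed, 48 were found under these symbols. Jak3, Il2rg and Il11ra1 were not analysed here, in the case of Jak3 because its array feature also names another gene. A gene named by several features was represented by the one with the highest overall mean.

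The cells were hematopoietic stem cells (HSCs), which renew the blood, from C57BL/6 mice. Stem and progenitor cells were cultured for 24 h with 5 µM all-trans retinoic acid (ATRA), the vitamin A derivative that activates the retinoic acid receptors, or with its solvent DMSO as control, and HSCs were sorted by flow cytometry after the culture. Their RNA was hybridised to 5 gene-level arrays, 2 for ATRA and 3 for DMSO. The labels do not state the age or sex of the mice, or whether each replicate had its own culture or animal. The p-values therefore describe the spread among these 5 samples alone, and that spread may be technical.

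Cytokine receptors of this class have no kinase of their own. Ligand binding brings receptor chains together, the JAKs bound to them phosphorylate the receptor tails, and STAT proteins dock there, are phosphorylated and move to the nucleus. Among the genes they switch on are Cish and the Socs genes, whose products block the receptors or the JAKs and so close the loop. In the marrow these receptors read out the growth factors of granulocytes, macrophages, red cells and lymphocytes.

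The ATRA arrays stood apart from the DMSO arrays and from each other. The SD over all features was 1.77 in ATRA replicate 1 and 1.49 in ATRA replicate 2, against 1.96 to 1.97 in the DMSO arrays. The ATRA arrays correlated with each other at 0.73 (Pearson's r over features, which are not replicates), against 0.966 to 0.978 among the DMSO arrays. ATRA replicate 1 correlated better with the DMSO arrays (0.811 to 0.834) than with ATRA replicate 2. Between ATRA replicate 2 and the DMSO arrays the correlation was 0.602 to 0.641. Genes with high DMSO values were lower in both ATRA arrays and genes with low DMSO values somewhat higher, so results are given as deposited and, for the main ones, also after this trend on expression level was subtracted from each array (level trend removed). The 10 analysed markers of HSCs and of their sort all had negative differences, against 42.1% of all genes. Of the 10, 4 were lower (Kit, Flt3, Mecom and Hlf), or 40.0% against 15.5% of all genes. Flt3 is a receptor of early progenitors, so the 10 are not genes of HSCs alone. Array means of the 10 were 7.59 and 6.63 in ATRA, against 8.49, 8.43 and 8.66 in DMSO. The median DMSO mean was 8.29, against 6.20 for all genes. With the level trend removed none of the 10 passed, and 7 differences were negative. Cd34 (1.105) and Procr (0.50) then lay above DMSO in both ATRA arrays. The 40 analysed markers of neutrophils, erythroid cells, megakaryocytes, lymphocytes and mast cells had array means of 6.15 and 6.17 in ATRA, against 5.74, 5.89 and 5.81 in DMSO. Of the 40, 2 were higher (S100a9 and Cd3g) and 1 lower (Itga2b), while 6.48% of all genes were higher and 15.5% lower. With the level trend removed, only Pf4, a megakaryocyte marker, passed among the 40, as higher (2.03, limma, adjusted p = 0.0284). As deposited, Pf4 differed by -0.17. The part of these marker genes in the results was not tested. In sorted cells, fewer cells of a type and less RNA per cell cannot be told apart.

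Set against DMSO, the ATRA arrays show which of these transcripts differed after retinoic acid. Of the 48 genes, 19 fell with ATRA, 2 rose and 27 did not pass the limma threshold (adjusted p under 0.05 over all genes). The 39.6% that fell compare with 15.5% of all genes tested, and the 4.17% that rose with 6.48% (21.9% passed in either direction). The median log2 difference of the 48 genes was -0.82, a direction kept under each scaling tried, and that of all genes was 0.16. Among the genes that fell, the receptors Il4ra and Csf3r, the transcription factors Stat5b and Stat6 and the phosphatase Ptpn6 had among the smallest adjusted p-values. Those that rose were Il5ra and Osmr, both with low values in DMSO.

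The array values separated the groups more often than the test did. Both ATRA values lay below all 3 DMSO values in 36 of the 48 genes (75.0%, against 29.2% of all genes) and above them in 5 (10.4%, against 33.0%). The ranges overlapped in the other 7, which were Csf1r, Lifr, Il2rb, Il21r, Il10ra, Il18r1 and Pim1. The mean of the 48 values was 6.97 and 6.69 in the ATRA arrays, against 7.86, 7.77 and 7.81 in the DMSO arrays.

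The size of the differences varied with the DMSO level of the genes, as it did over all genes. The 48 genes had a median DMSO mean of 7.78, against 6.20 for all genes. Of the 11 genes with DMSO means from 8 to 9, 8 fell (72.7%) and the median difference was -1.33. All 2582 genes of that level also had a median of -1.33, and 52.4% of them fell. Of the 14 genes from 7 to 8, 3 fell (21.4%, against 28.1% of all genes of that level), with a median of -0.58 against -0.64 for all 3409 genes there. Of the 6 genes from 9 to 10, 5 fell (83.3%, against 57.5%), and their median of -2.48 was lower than the -1.94 of all genes there. Of the 4 genes above 10, 3 fell (75.0%, against 45.7%), with a median of -2.23 against -2.32. None of the 6 genes at 6 or below or of the 7 from 6 to 7 fell, against 0.03% and 2.65% of all genes of those levels. Once the level trend was removed, none of the 48 genes passed (limma, 8 at an unadjusted p under 0.05, against 22.9% of all genes), while 223 of all genes (1.01%) were lower and 505 (2.28%) higher. The median over the 48 genes was then -0.16, against 0.02 for all genes. Both ATRA values then lay below all DMSO values in 10 of the 48 (22.2% of all genes) and above them in 6 (22.7% of all genes).

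**Figure D1:**
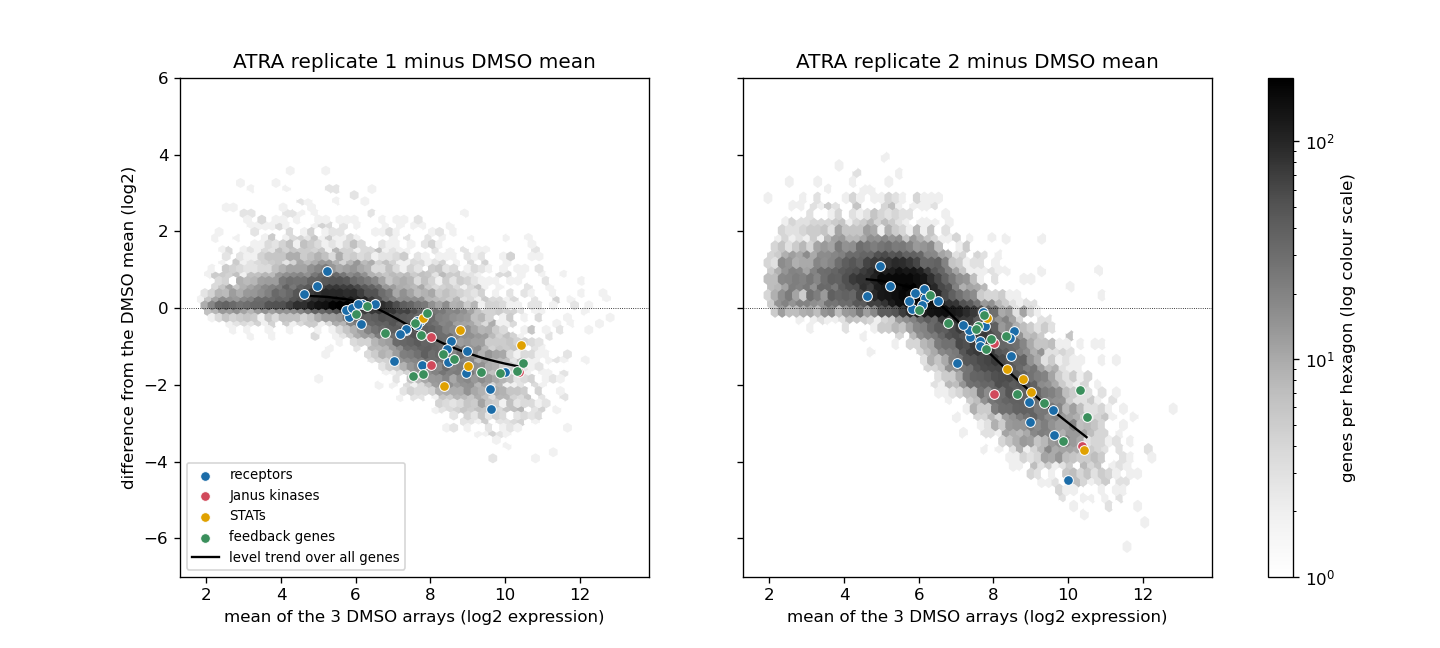
Difference of ATRA replicate 1 (left) and ATRA replicate 2 (right) from the DMSO mean, on the log2 scale, against the DMSO mean. Grey hexagons count all 22180 genes, coloured points are the 48 genes by role and the black line is the level trend over all genes, drawn between the lowest and highest of the 48. The points follow the line downwards in both arrays, more steeply in replicate 2.

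Calls depended on every DMSO array. When any 1 of the 3 was left out, no gene on the array passed (limma, 5907 to 6065 genes and 22 or 23 of the 48 at an unadjusted p under 0.05). With ATRA replicate 1 left out, 28 of the 48 were lower and 5 higher, and with ATRA replicate 2 left out 25 were lower and 2 higher, against 30.6% lower and 33.5% higher among all genes in the first case and 21.3% lower and 13.3% higher in the second. These fits take the spread of the lone ATRA array from the DMSO group.

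**Figure D2:**
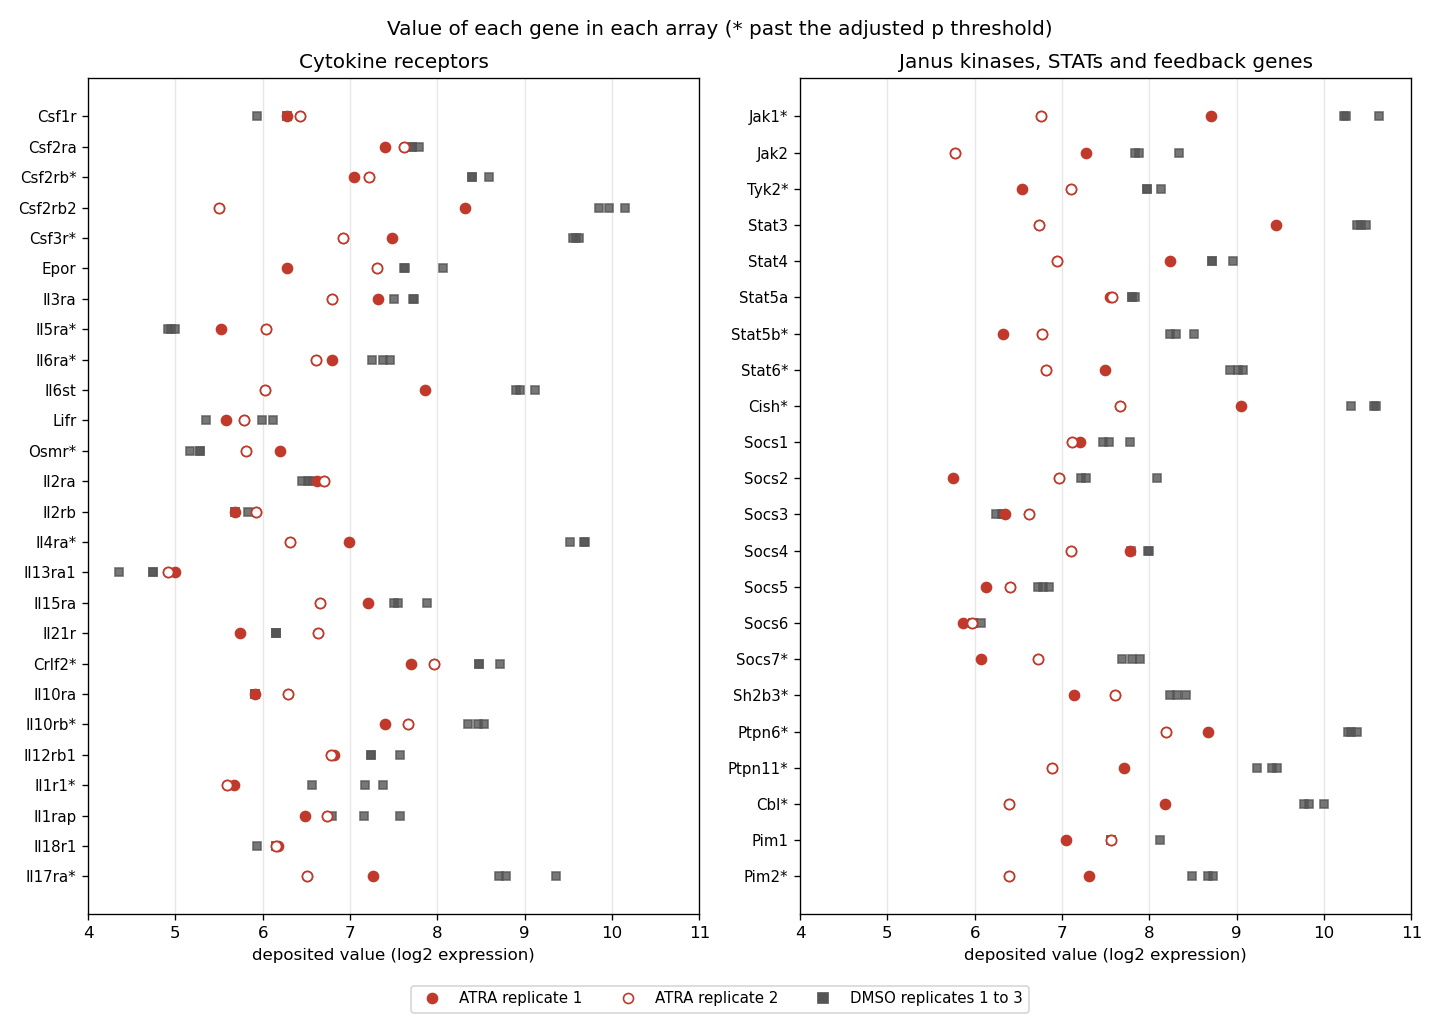
Deposited log2 expression of each of the 48 genes (rows) in each of the 5 arrays, with filled circles for ATRA replicate 1, open circles for ATRA replicate 2 and squares for the 3 DMSO arrays. An asterisk marks the 21 genes past the adjusted p threshold, and the circles of Csf2rb2, Stat3, Jak1, Il6st and Cbl lie far apart from each other.

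Of the 26 receptors, 8 fell (30.8%, against 15.5% of all genes), 2 rose (7.69%, against 6.48%) and 16 did not pass, with a median difference of -0.58. This median was negative under quantile normalization, median centring, cyclic loess and level trend removal as well, where it was smallest in size at -0.14. Both ATRA values lay below all DMSO values in 16 receptors (61.5%, against 29.2% of all genes) and above them in 4 (15.4%, against 33.0%).

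Of the 8 receptors of the colony-stimulating factors, their shared chain and related cytokines, 2 fell, 1 rose and 5 did not pass. Among all genes, 15.5% fell and 6.48% rose. The 8 receptors had a median DMSO mean of 7.75, and 28.1% of all genes with DMSO means from 7 to 8 fell. Csf3r, the receptor for G-CSF, the growth factor of neutrophils, was at 7.48 and 6.92 in the ATRA arrays, against 9.62, 9.59 and 9.55 in the DMSO arrays. Both ATRA values were far below a tight DMSO group. Csf3r fell by 2.39 (SE 0.20, adjusted p = 0.00747), which is 5.23-fold lower. Csf2rb, the beta chain shared by the receptors for GM-CSF, IL-3 and IL-5, was at 7.05 and 7.21 in ATRA, against 8.59, 8.40 and 8.39 in DMSO, and fell by 1.33 (SE 0.13, adjusted p = 0.00934). Relative to the level trend neither passed, with differences of -0.38 for Csf3r (adjusted p = 0.412) and 0.01 for Csf2rb (adjusted p = 0.99). Csf2rb2, a close relative of Csf2rb and the beta chain specific to IL-3 in mice, was at 8.31 and 5.50 in ATRA, against 10.15, 9.96 and 9.85 in DMSO. The ATRA arrays lay 2.81 apart, and the difference of -3.08 (SE 0.86), the largest in size of all 48 genes, did not pass (adjusted p = 0.0696). Csf2rb and Csf2rb2 arose by duplication and resemble each other in sequence, so signal shared between their features is possible and was not tested.

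Of the ligand-binding alpha chains that pair with Csf2rb, 1 rose and the others did not pass, and no test compared alpha with beta chains. Csf2ra, for GM-CSF, was at 7.40 and 7.62 in ATRA, against 7.70, 7.70 and 7.79 in DMSO (difference -0.22, 95% interval -0.56 to 0.11, adjusted p = 0.238). Il3ra, for IL-3, differed by -0.60 (adjusted p = 0.107). Relative to the level trend Csf2ra differed by 0.60 (adjusted p = 0.187) and Il3ra by 0.17 (adjusted p = 0.534). Il5ra, the chain that makes eosinophils and their precursors responsive to IL-5, was at 5.53 and 6.04 in ATRA, against 4.92, 4.99 and 4.95 in DMSO, a low level in all arrays. Il5ra rose by 0.83 (SE 0.19, adjusted p = 0.0447), or 1.78-fold. Genes with DMSO means of 6 or less had a median difference of 0.50 over all genes, and with the level trend removed the difference of Il5ra was 0.32 (adjusted p = 0.222).

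Epor and Csf1r, receptors for growth factors of the red cell and macrophage lineages, did not pass. Epor was at 6.28 and 7.31 in ATRA, against 8.06, 7.63 and 7.61 in DMSO (difference -0.98, adjusted p = 0.122), so only ATRA replicate 1 was far below the DMSO arrays. Csf1r, a receptor tyrosine kinase that does not depend on JAKs, was at 6.27 and 6.43 in ATRA, against 5.94, 6.27 and 6.27 in DMSO (difference 0.19, adjusted p = 0.377).

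The interleukin 4 receptor had the lowest adjusted p of the 48 genes. Il4ra, the signalling chain for IL-4 and IL-13 that activates Stat6, was at 6.99 and 6.31 in ATRA, against 9.69, 9.67 and 9.51 in DMSO. Il4ra fell by 2.97 (SE 0.24, 95% interval -3.61 to -2.34, adjusted p = 0.00739), which is 7.85-fold lower. It was also lower after quantile normalization (-2.72, adjusted p = 0.0163) and cyclic loess (-1.65, adjusted p = 0.011), where 6 of the 48 were lower and none higher, against 6.78% and 3.48% of all genes. After removal of the level trend, both ATRA arrays still lay below the DMSO arrays, by 1.27 and 0.61, and the difference of -0.94 did not pass (adjusted p = 0.0981).

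Chains that can pair with Il4ra, or share its family, did not all share this difference. Il13ra1, its partner in the IL-13 receptor, was at 4.99 and 4.92 in ATRA, against 4.35, 4.74 and 4.74 in DMSO (difference 0.34, adjusted p = 0.207). Crlf2, the receptor chain for TSLP, a cytokine of barrier tissues, fell by 0.73 (adjusted p = 0.0395), but lay 0.68 above DMSO with the level trend removed. Il15ra, which presents IL-15, differed by -0.72 (adjusted p = 0.0948). Il2ra, Il2rb and Il21r, receptor chains of lymphocytes, differed by 0.16, 0.07 and 0.03 and did not pass. The difference of Il21r averaged ATRA values on opposite sides of its DMSO level, 5.73 and 6.63, against 6.15 in each DMSO array. A value repeated in all DMSO arrays occurred in 2 of the 48 genes (Il21r and Il10ra) and in 6.47% of all genes.

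Il1r1 was the other receptor that was lower both after quantile normalization (-1.57, adjusted p = 0.0292) and after cyclic loess (-1.58, adjusted p = 0.0341). Il1r1, the signalling receptor for IL-1, which acts through the adaptor MyD88 and not through JAKs, was at 5.67 and 5.59 in ATRA, against 7.38, 7.17 and 6.56 in DMSO. The ATRA values were close together while the DMSO arrays spread over a wider range. Il1r1 fell by 1.41 (SE 0.28, adjusted p = 0.034), and by 1.12 with the level trend removed, where it did not pass (adjusted p = 0.0954). Neither fit with a single ATRA array called it (adjusted p = 0.0723 with replicate 2 and 0.116 with replicate 1). Its coreceptor Il1rap differed by -0.56 (adjusted p = 0.188) on the feature used, and by 0.48 and 0.77 on its other features, which had lower values and did not pass either.

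Il17ra, the receptor chain for IL-17, which also does not use JAKs, fell by 2.07 (SE 0.33, adjusted p = 0.0212), with 7.26 and 6.51 in ATRA, against 8.71, 8.79 and 9.36 in DMSO. Il18r1, for IL-18, differed by 0.08 (adjusted p = 0.601), with 6.17 and 6.15 in ATRA, against 5.93, 6.15 and 6.15 in DMSO. Of the IL-10 and IL-12 family, Il10rb, a chain shared by several cytokines, fell by 0.92 (adjusted p = 0.0201). Its partner for IL-10 itself, Il10ra, was at 5.91 and 6.29 in ATRA, against 5.91 in each DMSO array, and Il12rb1 differed by -0.55 (adjusted p = 0.0705). The fall of Il10rb became a difference of 0.41 with the level trend removed, from -0.09 in replicate 1 and 0.905 in replicate 2.

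Among receptors of the IL-6 family, which signal through the shared chain gp130 to Stat3, members moved in both directions. Il6st, which encodes gp130, was at 7.86 and 6.02 in ATRA, against 9.12, 8.95 and 8.90 in DMSO. Its difference of -2.05 did not pass (SE 0.57, adjusted p = 0.0687), and the ATRA arrays lay 1.84 apart. Il6ra, which binds IL-6, was at 6.79 and 6.61 in ATRA, against 7.25, 7.46 and 7.37 in DMSO, and fell by 0.66 (SE 0.13, adjusted p = 0.0358). Osmr, the oncostatin M receptor, was at 6.20 and 5.81 in ATRA, against 5.16, 5.28 and 5.28 in DMSO, and rose by 0.76 (SE 0.16, adjusted p = 0.0393). Relative to the level trend Osmr lay 0.66 above DMSO in ATRA replicate 1 and 0.10 below it in replicate 2 (-0.10), so only the first array set it apart from genes of its level. Lifr, the leukemia inhibitory factor receptor, differed by -0.13 (adjusted p = 0.705).

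All 3 Janus kinases analysed had both ATRA values below all DMSO values, against 29.2% of all genes, and 2 of them fell (66.7%, against 15.5%). Their median DMSO mean was 8.03, and 52.4% of all genes with DMSO means from 8 to 9 fell. Jak1, which serves gp130, interferon and common gamma chain receptors, was at 8.70 and 6.76 in ATRA, against 10.23, 10.26 and 10.62 in DMSO. Jak1 fell by 2.64 (SE 0.61, adjusted p = 0.0463), just inside the threshold, and the ATRA arrays were 1.94 apart. Tyk2, the kinase of interferon and IL-12 receptors, was at 6.54 and 7.11 in ATRA, against 7.98, 7.98 and 8.13 in DMSO, and fell by 1.21 (SE 0.21, adjusted p = 0.025). Jak2, the kinase of the erythropoietin and GM-CSF receptors, was at 7.27 and 5.78 in ATRA, against 8.34, 7.84 and 7.88 in DMSO. Jak2 differed by -1.49 (SE 0.50, adjusted p = 0.0977), and ATRA replicate 2 was the lower. After removal of the level trend the 3 kinases differed by -0.46 to -0.17 and none passed (limma, 0 at an unadjusted p under 0.05).

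All 5 STAT genes also had both ATRA values below all DMSO values, against 29.2% of all genes. Their median DMSO mean was 8.80, within the range of 8 to 9 in which 52.4% of all genes fell. Their median difference was -1.81, a direction kept under quantile normalization, median centring and cyclic loess but not with the level trend removed (0.10). Stat5b and Stat6 fell, or 40.0% of the STAT genes, against 15.5% of all genes. Stat5a and Stat5b, neighbouring duplicates whose products carry the signals of GM-CSF, IL-3 and erythropoietin, gave unlike values. Stat5b was at 6.32 and 6.77 in ATRA, against 8.51, 8.24 and 8.31 in DMSO, and fell by 1.81 (SE 0.19, 95% interval -2.32 to -1.29, adjusted p = 0.0102). Stat5a was at 7.55 and 7.57 in ATRA, against 7.80, 7.83 and 7.80 in DMSO, and differed by -0.26 (SE 0.10, 95% interval -0.54 to 0.02, adjusted p = 0.146). The 2 intervals do not overlap, and the difference between the 2 genes was not tested. Relative to the level trend, Stat5a lay above DMSO in both ATRA arrays, by 0.40 and 0.85, while Stat5b lay at -1.11 and 0.03.

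Stat6, the factor activated through Il4ra, was at 7.50 and 6.82 in ATRA, against 9.02, 8.92 and 9.07 in DMSO, and fell by 1.85 (SE 0.23, adjusted p = 0.0135). Stat3, activated through gp130 and Csf3r, was at 9.45 and 6.74 in ATRA, against 10.48, 10.42 and 10.37 in DMSO, and its difference of -2.33 did not pass (SE 0.83, adjusted p = 0.112). Stat4, activated by IL-12, was at 8.24 and 6.94 in ATRA, against 8.96, 8.72 and 8.72 in DMSO (difference -1.21, adjusted p = 0.105). For Stat3 and Stat4, ATRA replicate 1 differed from the DMSO mean by -0.97 and -0.56, and replicate 2 by -3.69 and -1.86.

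The feedback genes held no rise. Of 14, 7 fell and 7 did not pass, while 15.5% of all genes fell. In 12 of the 14 (85.7%, against 29.2% of all genes) both ATRA values lay below all DMSO values. The median DMSO mean of the 14 was 7.86, and 28.1% of all genes with DMSO means from 7 to 8 fell. The median difference of the feedback genes was -1.06. It stayed negative under each of the 4 other scalings, and was smallest in size with the level trend removed (-0.09).

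STAT proteins bind DNA at palindromes made of TTC and GAA with any 3 bases between them, and Cish and Socs3 are textbook examples of genes they switch on. The windows from 250 bases before to 50 bases after the gene start (RefSeq, build GRCm38.p6) were searched for this motif, which reads the same on both strands. Of the 37 genes with a window, 4 held a match (10.8%), namely Cish, Socs3, Csf2rb2 and Il18r1, or 4 of the 46 windows of these 37 genes (8.7%), against 8.3% of all 32851 windows. A match is a description of the letters and not a measured site. The windows of Cish, with 2 matches beginning at bases 1 and 12 of the gene, and of Csf2rb2 and Socs3, with 1 match each, are shown because these genes gave unlike values, a fall, a large difference that did not pass and a small positive difference that did not pass. Capitals mark the matches, 5′ to 3′ on the strand of the gene.
Cish, chr9:107296409-107296708, plus strand: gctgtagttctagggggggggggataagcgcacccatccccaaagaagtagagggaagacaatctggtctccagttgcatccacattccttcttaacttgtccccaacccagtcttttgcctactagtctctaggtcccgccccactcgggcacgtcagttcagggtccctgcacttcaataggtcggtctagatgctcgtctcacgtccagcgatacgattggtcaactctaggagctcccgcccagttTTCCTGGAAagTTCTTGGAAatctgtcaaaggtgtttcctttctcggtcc
Csf2rb2, chr15:78305672-78305971, minus strand: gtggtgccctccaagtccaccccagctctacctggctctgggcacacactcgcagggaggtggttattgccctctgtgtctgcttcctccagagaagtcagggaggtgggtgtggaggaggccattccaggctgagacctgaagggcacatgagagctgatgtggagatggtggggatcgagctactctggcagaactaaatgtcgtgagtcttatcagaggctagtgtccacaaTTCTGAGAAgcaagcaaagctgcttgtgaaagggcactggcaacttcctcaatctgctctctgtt
Socs3, chr11:117969317-117969616, minus strand: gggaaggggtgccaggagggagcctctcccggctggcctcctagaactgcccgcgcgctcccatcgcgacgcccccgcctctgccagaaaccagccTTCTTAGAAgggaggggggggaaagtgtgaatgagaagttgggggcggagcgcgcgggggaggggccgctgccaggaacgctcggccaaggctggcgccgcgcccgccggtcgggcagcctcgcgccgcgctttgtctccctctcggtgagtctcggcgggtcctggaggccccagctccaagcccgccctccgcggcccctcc

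Cish, whose protein competes with STAT5 for docking sites on receptors, was at 9.05 and 7.66 in ATRA, against 10.57, 10.31 and 10.59 in DMSO. Cish fell by 2.14 (SE 0.44, adjusted p = 0.037), or 4.39-fold, but lay 0.32 above DMSO with the level trend removed (adjusted p = 0.37), by 0.10 in replicate 1 and 0.54 in replicate 2. A second Cish feature, with lower DMSO values, differed by -0.18 and did not pass (adjusted p = 0.682 over all features). Socs3, the inhibitor of gp130 and G-CSF receptor signalling, was at 6.35 and 6.63 in ATRA, against 6.24, 6.33 and 6.31 in DMSO, and differed by 0.20 (SE 0.14, adjusted p = 0.294). It was the only feedback gene with both ATRA values above the DMSO arrays. Its other feature differed by 0.29 and did not pass. The values of Csf2rb2 are given above with the receptors.

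Of the other SOCS genes, Socs7 fell. Its product binds growth factor signalling adaptors, and its values were 6.07 and 6.72 in ATRA, against 7.89, 7.68 and 7.80 in DMSO (log2 difference -1.40, SE 0.23, adjusted p = 0.0232). Socs2, a feedback gene of STAT5, was at 5.75 and 6.97 in ATRA, against 8.09, 7.21 and 7.27 in DMSO, with both groups widely spread and a difference of -1.16 (adjusted p = 0.15). Its other feature, at 7.01 in each DMSO array, differed by -0.05. Socs1, the inhibitor of interferon signalling, differed by -0.43 (adjusted p = 0.102), Socs4 by -0.48 (adjusted p = 0.203) and Socs6 by -0.10 (adjusted p = 0.511). Socs5 differed by -0.52 (adjusted p = 0.062), and passed as lower after cyclic loess (-0.62, adjusted p = 0.0454).

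The adaptor, phosphatase and ubiquitin ligase genes all fell, with a median of -1.98 that became 0.06 with the level trend removed. Their median DMSO mean was 9.61, and 57.5% of all genes with DMSO means from 9 to 10 fell. Ptpn6, which encodes the phosphatase SHP-1 that switches off receptor signals in blood cells, was at 8.67 and 8.19 in ATRA, against 10.28, 10.38 and 10.31 in DMSO. Ptpn6 fell by 1.89 (SE 0.18, adjusted p = 0.00876). Ptpn11, which encodes SHP-2, a phosphatase that mostly promotes growth factor signals, fell by 2.07 (SE 0.28, adjusted p = 0.0153), with 7.71 and 6.89 in ATRA, against 9.40, 9.23 and 9.46 in DMSO. Cbl, a ubiquitin ligase that sends active receptors to degradation, was at 8.18 and 6.39 in ATRA, against 9.82, 9.77 and 9.996 in DMSO, and fell by 2.58 (SE 0.56, adjusted p = 0.0402). Sh2b3, which encodes the adaptor LNK, a brake on cytokine signalling in HSCs, was at 7.13 and 7.61 in ATRA, against 8.24, 8.42 and 8.32 in DMSO, and fell by 0.96 (SE 0.19, adjusted p = 0.0323). After removal of the level trend, Ptpn6 and Sh2b3 differed by 0.48 and 0.29 and Cbl and Ptpn11 by -0.43 and -0.17, and none passed. For Ptpn6 and Sh2b3, ATRA replicate 1 then lay below DMSO (-0.14 and -0.28) and replicate 2 above it.

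Pim1 and Pim2 encode survival kinases that STAT5 induces. Pim2 was at 7.31 and 6.39 in ATRA, against 8.72, 8.49 and 8.68 in DMSO, and fell by 1.78 (SE 0.31, adjusted p = 0.025). Pim1 was at 7.05 and 7.56 in ATRA, against 8.12, 7.56 and 7.56 in DMSO, and differed by -0.44 (adjusted p = 0.255). On its other feature Pim1 differed by 0.74 and did not pass.

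**Figure D3:**
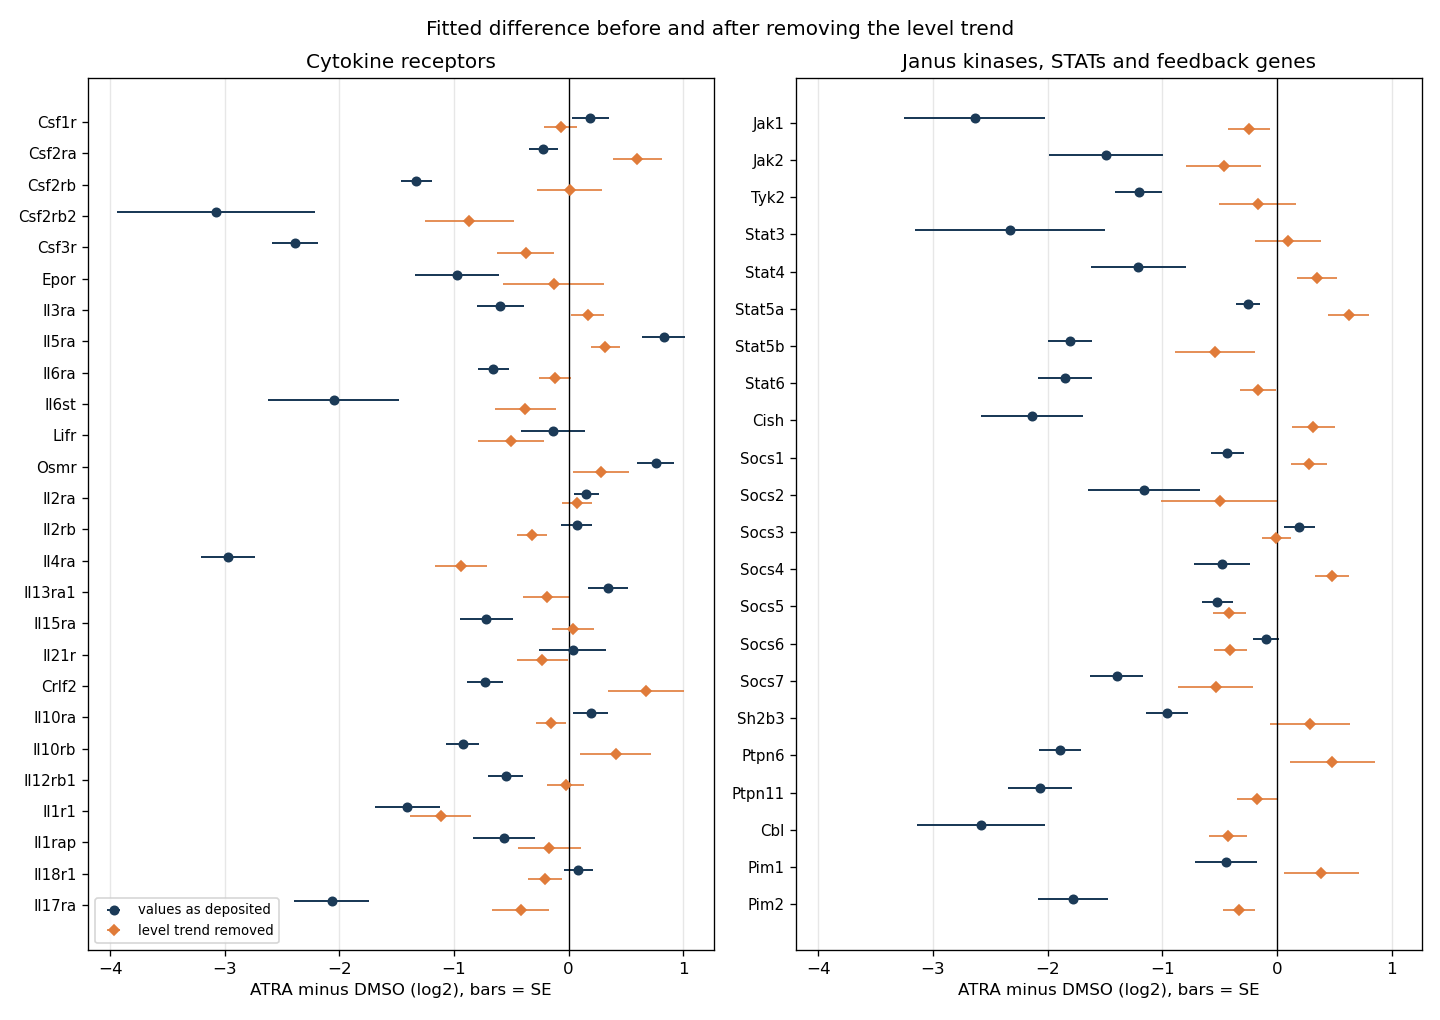
Fitted log2 difference, ATRA minus DMSO, of each of the 48 genes with its SE, from the deposited values (circles) and with the level trend removed (diamonds). Most circles lie left of 0 and most diamonds within 0.5 of it, with Il1r1, Il4ra and Csf2rb2 furthest to the left among the diamonds.

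Relative to the level trend, the ATRA arrays lay on the same side of DMSO in 25 of the 48 genes, 15 below and 10 above. The same count was not made over all genes, so it does not set these genes apart. Il1r1 and Il4ra were below in both arrays by more than 0.5. Csf2rb2 was also below in both, at -0.23 in replicate 1 and lower still in replicate 2, and Socs5, Socs6, Lifr and Cbl were among the others below in both. Stat5a, Socs4 and Csf2ra were above DMSO in both arrays, with differences of 0.63, 0.48 and 0.60, at unadjusted p-values of 0.0149, 0.0192 and 0.0356 (limma) and adjusted p-values of 0.129, 0.145 and 0.187. For Ptpn6, Sh2b3, Il10rb and Crlf2 the positive differences came mainly from replicate 2, and for Socs2, Socs7, Stat5b and Csf3r the negative ones came from replicate 1.

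**Figure D4:**
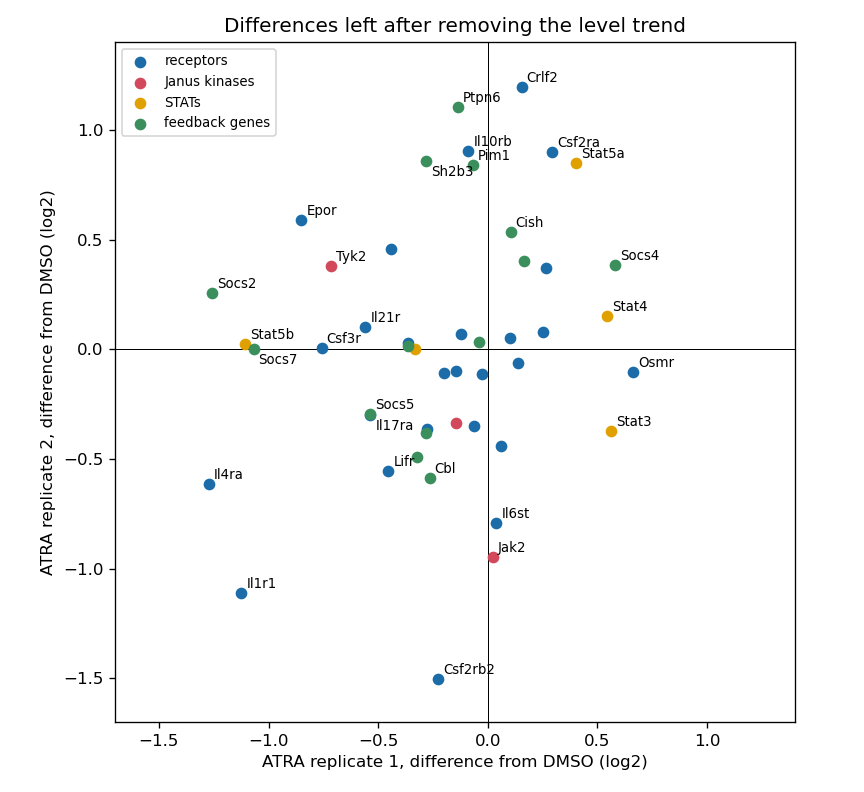
Log2 difference from DMSO left after removal of the level trend, ATRA replicate 1 (horizontal) against ATRA replicate 2 (vertical), for the 48 genes coloured by role. Named points lie over 0.5 from 0 in an array. Il1r1 (-1.12 and -1.11) and Il4ra (-1.27 and -0.61) are low in both arrays, and Stat5a (0.40 and 0.85) is high in both.

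The ATRA arrays also differed from each other. The ATRA arrays lay more than 1 apart in 10 of the 48 genes, and replicate 2 was the lower one in 8 of these, with Epor and Socs2 the exceptions. Of the 10, only Jak1, Cish and Cbl passed. The same count was not made over all genes. At any distance, replicate 2 was lower than replicate 1 in 43.4% of all genes and in 25 of the 48. Over all genes with DMSO means above 10, the median difference was -1.25 in replicate 1 and -3.25 in replicate 2. At 6 or below the medians were 0.24 and 0.68. The DMSO arrays were tighter, with a median SD of 0.12 over the 48 genes, as over all genes.

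Other genes of the pathway were taken from lists beyond the 48. Of 26 cytokine ligands, 1 fell, none rose and 25 did not pass (limma), with a median difference of 0.26, which was negative under each of the other scalings. Il12a, a subunit of IL-12, was the one that fell, by 0.79 (adjusted p = 0.0414). Il10 and Epo followed by p and did not pass, with differences of 0.32 and 0.59. Of 21 further cytokine receptors 5 fell and none rose. Kit, the receptor for stem cell factor, was at 8.32 and 7.06 in ATRA, against 10.90, 10.97 and 10.96 in DMSO, and fell by 3.25 (adjusted p = 0.0125). Il27ra, for IL-27, fell by 1.72, Ifngr2, a chain of the interferon gamma receptor, by 1.66, Il12rb2 by 1.84 and Flt3, a receptor of early progenitors, by 0.75. With the level trend removed, none of these 5 passed, and Ifnar2, a chain of the type I interferon receptor, was higher by 1.63 (adjusted p = 0.0298). As deposited, Ifnar2 was at 9.75 and 8.15 in ATRA, against 8.99 in each DMSO array, so the ATRA arrays lay on opposite sides of DMSO and the difference was -0.04 (adjusted p = 0.955). Ifnar2 was chosen for mention after its values were seen.

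Of 22 further signal transducers and regulators, 10 fell, none rose and 12 did not pass, with a median of -1.29. Those with the smallest p were Sh2b1, an adaptor that binds Jak2 (-2.36), Ptpn1, a phosphatase that acts on JAKs (-1.28), and Gab2, a docking protein for SHP-2 and phosphoinositide 3-kinase (-2.49). Gab2 was at 6.52 and 5.74 in ATRA, against 8.62, 8.42 and 8.81 in DMSO, and also passed with the level trend removed (-1.05, adjusted p = 0.0444). Of 19 STAT target genes outside the 48, 7 fell, 1 rose and 11 did not pass. Ccnd1, a cyclin gene of cell cycle entry, had values of 7.10 and 7.10 in ATRA, against 8.91, 9.29 and 8.91 in DMSO, and fell by 1.93 (adjusted p = 0.00771). The survival gene Bcl2l1 fell by 1.003 (adjusted p = 0.0105) and the adhesion molecule gene Icam1 fell by 1.804 (adjusted p = 0.0194), while Cebpb, a myeloid transcription factor gene, rose by 0.53 (adjusted p = 0.0468). With the level trend removed, only the cyclin gene Ccnd2 passed among them (-0.96, adjusted p = 0.0384), which like Cebpb was chosen after its values were seen. In these lists 3.85%, 23.8%, 45.5% and 36.8% of genes fell, in the order given, against the 15.5% of all genes.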

How the data were processed

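The authors deposited log2 expression values, 1 per array feature and array, from 5 arrays. Per the submitters' processing notes, RMA, oligo 1.36.1 and limma 3.28.20 were used, with no role or order, while the sources used here do not give a genome build or say whether all arrays were normalized together. Identical values recur between arrays in 47.8% of all genes and in 14 of the 48 (all 3 DMSO arrays alike in Il21r and Il10ra), which lowers their estimated spread. No filter on low values was applied, and the change of dim features may be compressed.

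Groups were taken from the sample titles. Features were named through the platform annotation, and current symbols were found through the gene identifier (23328 of 23521 features with 1 gene matched GRCm38), and features with several genes were not used. ATRA was compared with DMSO by limma 3.58.1 (R 4.3.3) with lmFit and eBayes, two-sided, with Benjamini-Hochberg adjustment over 22180 genes, 3 residual degrees of freedom and a prior of 1.52. Every adjusted p comes from this fit or a named alternative. The level trend was a lowess curve (span 0.3) of each array's difference from the DMSO mean on the DMSO mean, over all genes, subtracted from that array. The fits were also run on simulated data, in which the ATRA arrays were drawn with the spread of the DMSO arrays. That check does not cover the wider spread between the ATRA arrays here.

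The genes, lists and tests were chosen with earlier results of these data known. All genes found were described. Beyond them the 3 genes with the smallest p of each further list, genes past the threshold where 5 or fewer were, and the receptor genes Kit and Flt3 were named, and an item of this rule is not reported here. The marker genes named were chosen after their values were seen. Scanner files were not used here, and the number of arrays limits the precision. Replicates 1 and 2 share numbers between groups, but nothing says that the numbers mark a shared animal or day.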

Additional observations from a re-analysis of the deposited data

How the results depend on the processing

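Of the 48 genes 19 were lower and 2 higher. The number lower was 25 to 28 with 1 ATRA array left out and 0 with any DMSO array left out, and the number higher 2 to 5 and 0, so leaving out 1 array gave 0 to 28 lower and 0 to 5 higher. It was 0 lower and 0 higher with the replicate number as a block, with array weights or with the level trend removed, 8 and 0 after quantile normalization, 6 and 0 after cyclic loess and 6 and 0 without the empirical Bayes prior. Median centring gave 26 lower and 0 higher and moved the median of all genes to -0.11 (0.16 as deposited). None of the 48 was higher with the fit over all features. Leaving out dim genes gave 19 lower and 0 higher, but that filter removed both genes that rose, so its 0 is no test of them. In the block fit 22 of the 48 had an unadjusted p under 0.05, with array weights 21 and with the level trend removed 8. The replicate numbers were not shown to pair the samples. The correlation of deviations between same-numbered arrays was 0.134 for replicate 1 and 0.098 for replicate 2, and the block left 1 residual degree of freedom.

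Among all genes 4865 passed, of which 1437 were higher. The number was 0 to 14207 with 1 array left out (14207 and 7683 without ATRA replicate 1 or 2, 0 with any DMSO array left out), 0 with the replicate block or array weights (5412 and 4377 at an unadjusted p under 0.05), 2182 after quantile normalization, 2275 after cyclic loess, 728 with the level trend removed, 1691 without the prior and 7755 at an adjusted p under 0.1. The higher calls were 439 of 2182 after quantile normalization, 560 of 5102 after median centring and 505 of 728 with the trend removed.

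The fitted difference had another sign under at least 1 alternative in 25 of the 48 genes, of which 6 had passed as deposited. Among those 6, signs turned for Crlf2 after quantile normalization (0.047), cyclic loess (0.50) and level trend removal (0.68), for Il10rb (0.19 and 0.41) and Sh2b3 (0.062 and 0.29) in the last 2 settings, and for Csf2rb (0.008), Cish (0.32) and Ptpn6 (0.48) with the level trend removed. Il21r, with identical DMSO values, was lower without ATRA replicate 2 (-0.42, adjusted p = 0.01) and higher without ATRA replicate 1 (0.48, adjusted p = 0.00308). The causes were not tested. The 2 ATRA arrays were of unlike spread, and the size of a difference alone did not set whether it passed. The 27 differences that did not pass ranged from -3.08 to 0.34, and those of the 19 genes that fell from -2.97 to -0.66. Of the 27 genes, 17 had both ATRA values below all DMSO values. Not passing the threshold therefore does not show that a difference was absent.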
